A study of Mus musculus with 6 samples.

Results

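A set of 10 genes that mark blood cells, not stroma, was followed through the open-chromatin peak lists of a stromal sort from mouse bone marrow: Ptprc, Spi1, Siglec1, Csf1r, Lyz2, Mpo, S100a8, Gata1, Klf1 and Epor. They stand among 21631 protein-coding genes on chromosomes 1 to 19 and X. They were chosen by name as markers of all leukocytes, of myeloid cells or of the erythroid line. A peak belonged to one of them if its summit lay in the gene or within 100 kb of it and no other protein-coding gene span was nearer. By this rule the genes held 30 peaks in PBS replicate 1, 28 in replicate 2 and 17 in replicate 3 (of 88348, 89264 and 65462 listed) and 24, 26 and 28 in the corresponding DOX replicates (of 91026, 91060 and 100642 listed).

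The cells were bone marrow mesenchymal stem and progenitor cells of female mice with the genotype Lepr-Cre;LSL-tdTomato+/-, which all 6 libraries share. Mice aged 8 to 10 weeks received 4 intravenous injections 1 week apart, either of doxorubicin (DOX, an anthracycline that traps topoisomerase on DNA) at 5 mg/kg or of PBS, and marrow was taken 8 weeks after treatment. There were 3 libraries of each group. Cre under the leptin receptor gene switches on a red reporter in perivascular stromal cells, and the labels name tdTomato as the sort criterion. The sources used here do not say whether leukocytes or erythroid cells were also gated out or depleted. The titles call each library a biological replicate, but the sources used here do not give how many mice went into one. Every p-value below rests on the spread among libraries. ATAC-seq marks open chromatin by the cuts of the Tn5 transposase, which enters where nucleosomes leave DNA free.

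Spi1 encodes PU.1, the transcription factor that directs myeloid differentiation, and Gata1 and Klf1 encode the factors that direct the erythroid program. Both kinds of factor act through promoters and distal enhancers that are open in blood progenitors and mostly closed elsewhere. Marrow stroma lies among developing blood cells and macrophages, and blood-cell markers are a usual purity check of stromal sorts.

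The sequences just before 4 of the starts show what the peaks covered or left out. S100a8 and Epor had a peak there, and Mpo and Gata1 had none and were picked for contrast after their letters had been searched. Each line gives the 250 bases before the RefSeq start (GRCm38.p6, the assembly shown as mm10), 5′ to 3′ along the gene's strand. Capitals mark matches on either strand to one of several short motifs. These were AGATAA for GATA factors, GAGGAAGT for the factor PU.1, CACACCC for factors of the KLF family, TTGCGCAA for the C/EBP family, and GGGCGG for the GC box. No motif overlaps another in these windows.
S100a8, chr3:90668821-90669070, plus strand: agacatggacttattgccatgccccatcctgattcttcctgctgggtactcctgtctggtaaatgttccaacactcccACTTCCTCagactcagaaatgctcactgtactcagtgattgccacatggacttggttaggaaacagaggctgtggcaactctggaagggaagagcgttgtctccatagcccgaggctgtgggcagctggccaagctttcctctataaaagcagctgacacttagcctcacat
Epor, chr9:21963577-21963826, minus strand: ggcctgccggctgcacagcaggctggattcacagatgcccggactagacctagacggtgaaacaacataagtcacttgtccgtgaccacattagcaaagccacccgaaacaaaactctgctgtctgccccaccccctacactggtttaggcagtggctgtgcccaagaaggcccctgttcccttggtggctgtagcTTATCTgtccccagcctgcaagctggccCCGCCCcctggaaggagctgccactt
Mpo, chr11:87793534-87793783, plus strand: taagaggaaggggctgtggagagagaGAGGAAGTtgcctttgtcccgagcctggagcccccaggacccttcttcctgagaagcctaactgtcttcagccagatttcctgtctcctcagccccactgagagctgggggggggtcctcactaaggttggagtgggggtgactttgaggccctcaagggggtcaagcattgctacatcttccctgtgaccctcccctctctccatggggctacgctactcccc
Gata1, chrX:7967911-7968160, minus strand: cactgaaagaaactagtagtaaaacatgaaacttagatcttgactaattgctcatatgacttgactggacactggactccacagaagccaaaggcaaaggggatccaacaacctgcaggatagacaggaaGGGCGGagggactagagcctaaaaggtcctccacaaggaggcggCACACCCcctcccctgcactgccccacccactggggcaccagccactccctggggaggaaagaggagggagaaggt

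S100a8 carried the PU.1 letters on the opposite strand, from position -172 (counted from the start, with -1 the last base printed), and Mpo carried them on its own strand from -224. In the Epor window the GATA letters began at -54 and the GC box at -26, both on the opposite strand. Gata1 held a GC box at -120 and the KLF letters at -76. Of 21045 RefSeq promoters of the same length, 2.25% held the PU.1 letters, 8.84% the GATA letters, 7.13% the KLF letters, 43.1% the GC box and 0.2% the C/EBP letters. A match is a run of letters and shows no binding. Promoter sequences of Spi1, Siglec1 and Csf1r were not used here.

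Most of these blood genes had no peak at the start in at least 1 library, while the stromal markers that check the sort were open there. A peak with its summit within 1 kb of the start was listed in all 6 libraries for 3 of the 10 genes (Spi1, S100a8 and Epor), against 56.9% of all protein-coding genes and 19 of 20 stromal markers. The only stromal gene short of 6 libraries was Pdgfra, with a start peak in 3. No library listed a start peak for 5 of the 10 (Ptprc, Lyz2, Mpo, Gata1 and Klf1), against 35.5% of all genes. Siglec1 had one in 5 libraries and Csf1r in 1. No peak at all was assigned to 3 of the 10 (Lyz2, Mpo and Gata1), against 25.2% of all genes. RefSeq gave the start itself for 7 of the genes, while for Spi1, Siglec1 and Csf1r either end of the gene span counted, as it did for 4357 of all genes.

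The libraries differed in depth. Reads were not counted here, but the mean background pileup (fragments over a position), solved from each list, was 1.27, 1.10 and 0.558 in PBS and 1.72, 1.67 and 2.22 in DOX, in replicate order. Every DOX library was thus deeper than every PBS library, so depth and treatment cannot be told apart, and PBS replicate 3 was the shallowest. A region without a listed peak was below the threshold of that library, where the weakest listed summit had 5 to 7 fragments in PBS and 8 to 9 in DOX; it need not be closed. To keep list length from setting the counts, a second set of lists held the 65462 strongest peaks of each library. A weak peak in a bulk library can stand for few cells that are open at the site or for many cells that are slightly open, and these cannot be told apart.

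**Figure D1:**
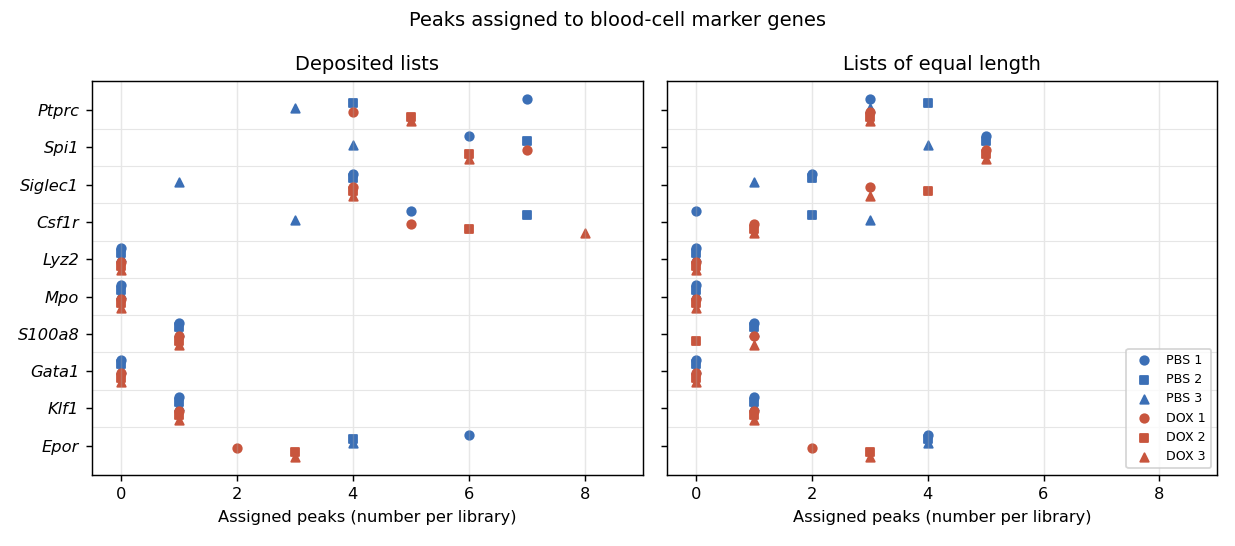
Peaks assigned to each of the 10 blood-cell marker genes (horizontal axis, number per library), in the deposited lists on the left and in lists of 65462 peaks on the right; blue is PBS, red is DOX, and the marker shape is the replicate. Lyz2, Mpo and Gata1 sit at 0 in every library, and Epor is the gene whose DOX libraries (2 to 3) all lie below its PBS libraries (4 to 6 as deposited).

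Ptprc encodes CD45, the phosphatase on the surface of nearly all nucleated blood cells (chr1:138062859-138175756, minus strand). The deposited lists gave it 7, 4 and 3 peaks under PBS against 4, 5 and 5 under DOX, so the groups overlapped. None lay within 1 kb of either of its RefSeq starts. The peaks merged into 7 regions, of which 3 had a peak in all 6 libraries. The one inside the gene, chr1:138136403-138136736, had a fold enrichment of 19.8, 14.8 and 14.1 in PBS and 17.3, 17.2 and 15.5 in DOX. Fold enrichment is the authors' value for a single peak, the pileup at the summit over the background, and it is not scaled between libraries. The other 2 lay beyond the far end of the gene, at 25181 and 55840 bp from it, with folds from 5.24 to 17.7. The highest fold of the gene was in a region 18141 bp beyond that end, chr1:138044483-138044845, which PBS replicate 3 did not list. Its folds were 19.8 and 21.9 in PBS replicates 1 and 2 and 19.1, 24.7 and 22.6 in DOX. The gene had peaks in every library, then, but none at a start.

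Spi1 was the myeloid gene with the strongest peaks (chr2:91082374-91115759). Its span held 7 of its 8 regions, and 4 regions had a peak in all 6 libraries. Near the upper end of the span, chr2:91115009-91115642 reached folds of 47.6, 54.9 and 40.4 in PBS and 46.7, 56.9 and 56.8 in DOX. Near the lower end, chr2:91082808-91083325, with its summit 708 bp inside, reached 41.8, 29.1 and 17.3 in PBS and 36.0, 39.7 and 45.6 in DOX. A peak therefore stood within 1 kb of each end of the span in every library, whichever end is the start. The span includes 1 predicted transcript beside 3 curated ones, so its ends need not be the start that myeloid cells use, and the enhancer before the start could not be placed without the strand. Inside the gene, chr2:91101351-91101841 had folds of 55.9, 59.6 and 32.1 in PBS and 51.8, 57.6 and 60.2 in DOX. A region 3662 bp outside the lower end, chr2:91078239-91079308, had folds of 32.2, 26.7 and 20.5 in PBS and 37.5, 37.4 and 55.5 in DOX. In each of these regions PBS replicate 3 had the lowest fold. The peak at the upper end was stronger than 27.9% to 38.9% of the start peaks of its own library, so in the weaker part of them but far from the weakest.

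Csf1r encodes the receptor for macrophage colony-stimulating factor (chr18:61105572-61131139). Its deposited peaks, 5, 7 and 3 under PBS against 5, 6 and 8 under DOX, spread over 12 regions, of which 7 had a peak in a single library. Only chr18:61095593-61096722, which lies 9463 bp outside the gene, had a peak in all 6, with folds of 5.73, 9.54 and 7.70 in PBS and 10.3, 13.1 and 11.5 in DOX. Inside the gene, chr18:61106669-61107272 and chr18:61120455-61120981 had a peak in every library but PBS replicate 3. There too, chr18:61108426-61109530 had one in every library but DOX replicate 1, and chr18:61127493-61127839 in 4 libraries. Folds in the 10 regions inside the gene ran from 3.72 to 8.11, near the lowest fold that was listed (3.10 to 3.85 by library). The single peak within 1 kb of an end was in DOX replicate 2, with a fold of 4.12 and a pileup of 10, and 0.33% of that library's start peaks were weaker. In lists of equal length the gene kept 0, 2 and 3 peaks in PBS and 1 in each DOX library. Csf1r lies beside Pdgfrb, a receptor gene of stromal and mural cells, and within 100 kb of Csf1r the lists held 37 to 51 peaks, of which 18 to 25 were assigned to Pdgfrb. The macrophage receptor gene had weak peaks, some in most libraries and others in a single one. Whether the nearby stromal gene has a part in them was not tested.

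Siglec1 encodes CD169, a sialic acid receptor of resident macrophages (chr2:131067801-131086778). None of its 4 regions was inside the gene. The region at its upper end, chr2:131086548-131087054, had folds of 4.85 and 4.29 in PBS replicates 1 and 2, no peak in PBS replicate 3, and folds of 8.09, 8.98 and 12.1 in DOX. The pileups at those summits were 10 and 8 in PBS and 21, 23 and 38 in DOX. The DOX values were all above the PBS values where a peak was listed, as were the background pileups of the libraries. The peak was weak in each library that listed it: 0.707% to 0.8% of the start peaks of the same library were weaker in PBS, and 5.43% to 8.95% in DOX. A second region 1114 bp outside the gene, chr2:131087656-131088087, had a peak in all 6 libraries, with folds of 8.81, 14.8 and 8.99 in PBS and 18.8, 15.7 and 15.8 in DOX. In lists of equal length Siglec1 had a start peak in all DOX and no PBS library, which held for 25 of all genes (0.116%); the reverse held for 0 of the 10 genes and for 15 of all (0.0693%). That pattern was among the results known when the genes were chosen and is a description. In the deposited lists 402 other genes, of 21631 protein-coding genes, had a start peak in the same 5 libraries as Siglec1. The strongest of these peaks were at Ahnak, Apoc1 and Hnrnpu. Absence from PBS replicate 3 alone was thus not particular to Siglec1. The presence of the Csf1r start peak was shared by 53 genes, with Slc25a41, Gm20346 and Nedd4l the strongest.

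Lyz2 encodes lysozyme M, made by macrophages and granulocytes (chr10:117277541-117282272, minus strand). It had no assigned peak, and the nearest summit was 38582 to 53044 bp away and belonged to Cpsf6 or Yeats4. Mpo encodes myeloperoxidase of primary granules in promyelocytes (chr11:87793784-87804412, plus strand). It had no assigned peak either. Its nearest summit was 15166 to 15198 bp away in 5 libraries and belonged to Tspoap1, while DOX replicate 3 had a peak 1729 bp away with a fold of 9.31, assigned to Lpo. Both genes are strongly expressed in their cell types, and neither had a peak assigned in any of the 6 lists.

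S100a8, which encodes a calprotectin subunit abundant in neutrophils, had a start peak where Lyz2 and Mpo had none (chr3:90669071-90670034, plus strand). Each library had 1 peak, in chr3:90668662-90669263, with the summit 64 to 86 bp before the start and so inside the sequence printed for it. The fold was 14.1, 7.63 and 5.14 in PBS and 8.46, 7.86 and 9.93 in DOX, from pileups of 31, 15 and 7 in PBS and 22, 20 and 31 in DOX. The DOX values lay within the range of the PBS values. The peak was weak in every library, since 0.902% to 10.9% of start peaks were weaker, and DOX replicate 2 lost it in the list of equal length. S100a9, which encodes its partner subunit, had no start peak in any library, though 3 peaks near it were assigned to it in each of the 6.

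Gata1 had no assigned peak (chrX:7959260-7976663, minus strand, with the RefSeq start at 7967910). The nearest summit in each library lay 11318 to 11330 bp from the gene and belonged to Hdac6, with folds of 70.6 to 132. Klf1 (chr8:84901982-84905291, plus strand) had 1 peak in every library, inside the gene with its summit about 1221 bp after the start, in chr8:84902615-84903765. Its folds of 89.4, 91.1 and 69.3 in PBS and 96.0, 119 and 123 in DOX were the highest of the 10 genes within each library. A window of 2.5 kb in place of 1 kb would thus have counted Klf1, and Siglec1 too. The factor genes of the erythroid line thus differed from each other, with a strong peak inside Klf1 and none inside or assigned to Gata1.

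Epor encodes the erythropoietin receptor (chr9:21958897-21963576, minus strand). Its strongest region, chr9:21961792-21963875, reached from inside the gene across the start. The highest summit lay 957 to 967 bp after the start, just inside the window of 1 kb, with folds of 56.8, 47.2 and 32.7 in PBS and 73.9, 74.5 and 103 in DOX. Each DOX value was above each PBS value, as were the background pileups. A second summit at the start itself, from 48 bp before to 35 bp after it, was listed in 5 libraries, with folds of 39.6, 30.5 and 18.6 in PBS and 43.8 and 74.2 in DOX replicates 2 and 3. DOX replicate 1 had instead 1 wide peak of 2032 bp that spanned both places. Within the start peaks of a library, 30.0% to 51.0% were weaker than the Epor peak at its highest summit, which placed it near the middle of them or below. The neighbouring gene Swsap1 begins or ends 627 bp away. A region further inside, chr9:21960056-21960841, was listed as 2 peaks in each PBS library and as 1 in each DOX library.

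**Figure D2:**
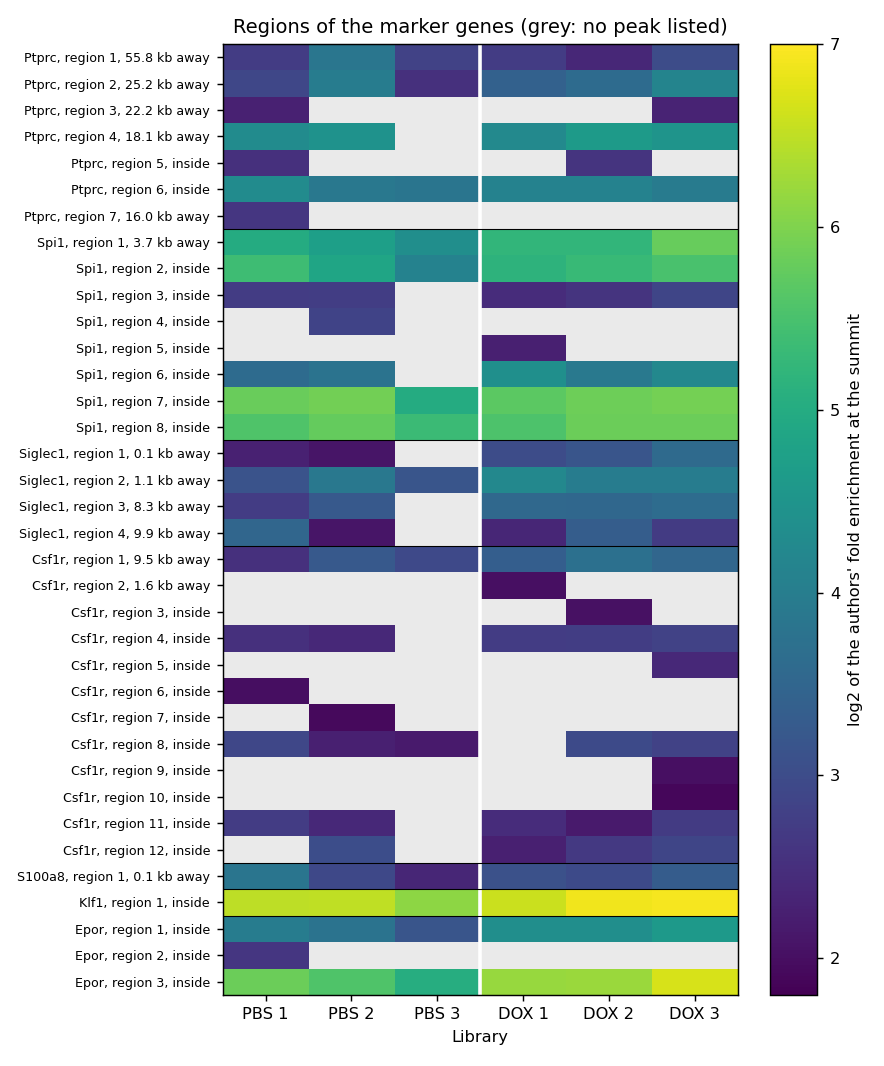
Each row is one of the 36 merged regions of the marker genes, ordered along the genome within a gene, and each column a library; the colour is log2 of the authors' fold enrichment of the strongest peak in the region, and grey means that no peak was listed. The Spi1, Klf1 and Epor rows hold the bright cells, while 7 of the 12 Csf1r rows have a peak in a single library, and 13 of the 36 regions have a peak in all 6.

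Other markers of the same lineages, from a list of 129 matched symbols, gave a mixed picture. Of 28 other myeloid genes, 3 had a start peak in all 6 libraries and 19 had none in any. The 3 were Camp, a neutrophil granule peptide (fold 67.4 to 134), Irf8, a transcription factor of monocytes and dendritic cells (69.3 to 119), and Cd14, a lipopolysaccharide co-receptor (10.9 to 30.1). Among the granule protease genes, Ctsg had no start peak, Elane had one in DOX replicate 2 with a fold of 4.12, and Prtn3 had one in all libraries but PBS replicate 3, with folds of 7.93 to 16.1. Of 10 other leukocyte genes, 3 had a start peak in all libraries: Arhgdib, an inhibitor of small GTPases (46.9 to 116), Coro1a, an actin regulator (16.05 to 29.05), and Rac2, a small GTPase of blood cells (7.49 to 14.3). Among 21 other erythroid genes, Nfe2, a subunit of a globin enhancer factor (21.8 to 62.4), and Ank1, the ankyrin of the red cell membrane (24.4 to 45.9), had a start peak in all libraries. None was listed in any library for 15 of these 21, including the 4 adult globin genes and Alas2, the first enzyme of erythroid haem synthesis. For Cd14, Rac2, Nfe2 and Ank1 either end of the span counted, so the peak may stand at the far end.

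Counted by library, start peaks were present for 7, 5 and 4 of the 28 other myeloid genes in PBS and 5, 7 and 6 in DOX. For the 10 leukocyte genes the numbers were 6, 5 and 3 in PBS and 6, 7 and 6 in DOX, and for the 21 erythroid genes 5, 5 and 3 in PBS and 5, 5 and 6 in DOX. PBS replicate 3, the shallowest library, had the fewest of each. Markers of further cell types that a marrow sort may hold were open at the start in all libraries for 1 of 8 megakaryocyte genes (Pf4), 1 of 11 T and NK-cell genes (Cd4, whose window also holds the start of Gpr162) and 2 of 10 endothelial genes (Egfl7 and Kdr). The part of such cells in the peaks of the 10 marker genes was not tested. Start peaks also differed in strength: the median fold of stromal start peaks was 62.6, 69.2 and 44.3 in PBS and 74.6, 82.3 and 99.3 in DOX, above S100a8, Siglec1 and Csf1r in every library.

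**Figure D3:**
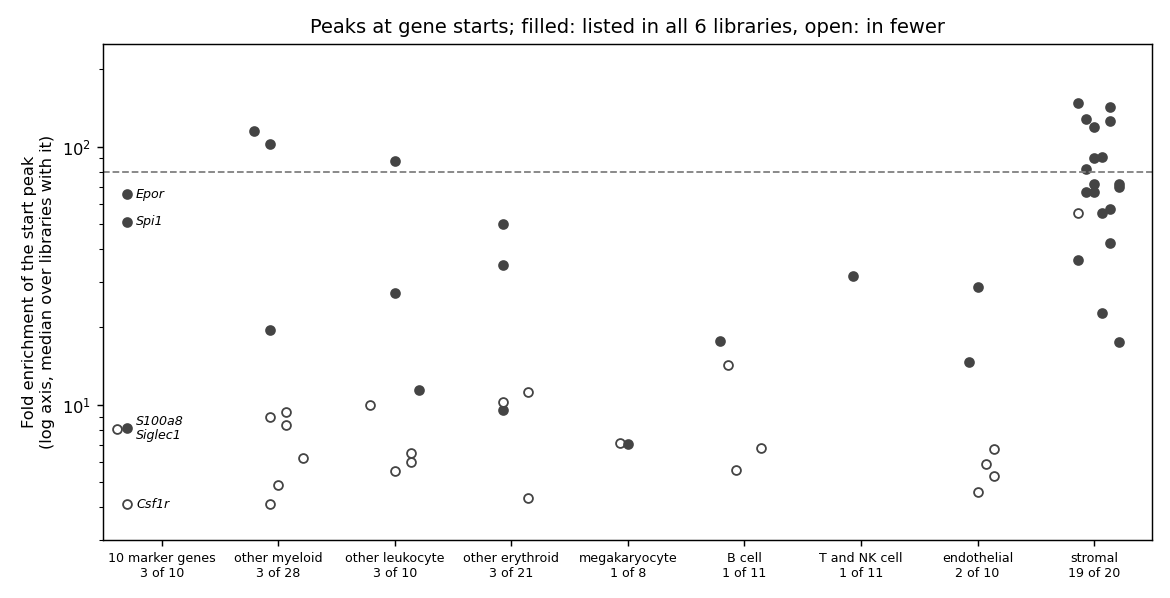
Fold enrichment of the start peak on a log axis, one point per gene with such a peak, as the median over the libraries that list it; filled points were listed in all 6 libraries, open points in fewer, and the counts under each list are genes with a peak in all 6 of genes matched. The dashed line is the median fold over all genes with a start peak. Epor and Spi1 lie among the stromal genes, and S100a8, Siglec1 and Csf1r lie below them. For Spi1, Siglec1 and Csf1r either end of the span counted, so the peak may stand at the far end. The Spi1 point is the peak at the upper end, and the peak at the lower end had folds of 17.3 to 45.6.

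The 250 bases before the start held few CpG dinucleotides in all 7 marker genes with a RefSeq start: 1 in Lyz2, 2 in Mpo, S100a8 and Gata1, 3 in Klf1, 4 and 2 before the starts of Ptprc, and 6 in Epor. Starts with a peak in all 6 libraries had a median of 16 CpG (n = 9902, with the middle 50% of genes at 10 to 23), and starts without a peak in any had a median of 2 (n = 6186, 1 to 4). The 5 genes without a start peak thus had windows like other starts without one. S100a8 differed, in that 3.0% of starts with a peak in all libraries had as few CpG, and for Epor the share was 12.6%.

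**Figure D4:**
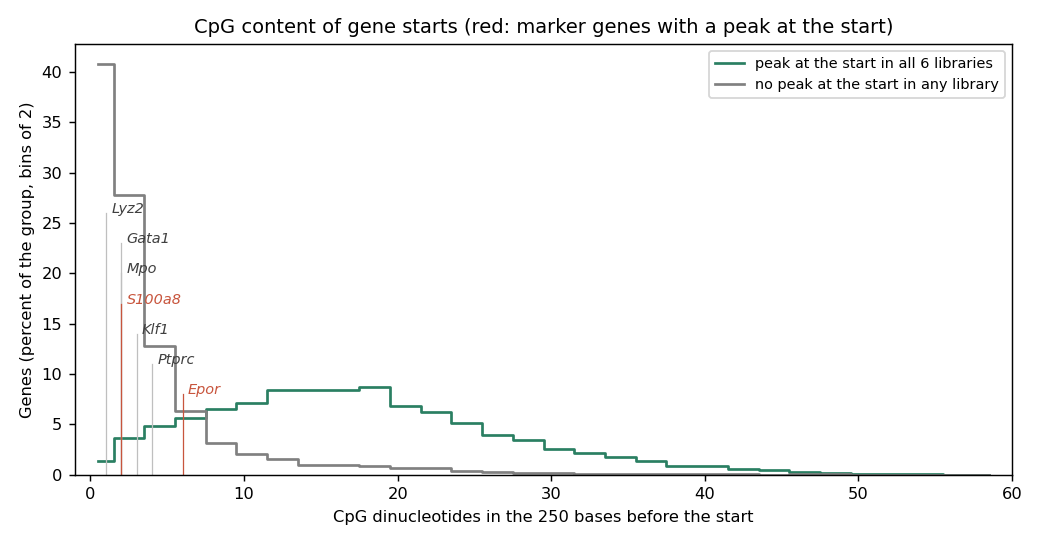
Distribution of CpG dinucleotides in the 250 bases before the start (horizontal axis) for genes with a start peak in all 6 libraries (green) and in none (grey), as percent of genes in each group per bin of 2. Vertical lines mark the 7 marker genes with a RefSeq start, at 1 to 6 CpG, all to the left of the green group's median of 16; red names have a peak at the start.

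Doxorubicin against PBS was tested over all genes, and none of the marker genes was called. The number of peaks per gene in lists of equal length was compared with limma on log2(peaks + 0.5) over 8761 genes (mean of 2 peaks or more), of which 1.1% were called at an adjusted p of 0.05 (48 higher, 0.548%, 48 lower, 0.548%, and 484 at an unadjusted p under 0.05). The split was 75 higher and 25 lower when merged regions were counted in place of peaks, and 4 higher and 0 lower in the deposited lists scaled to their totals. Of the 10 marker genes 4 passed the filter and 0 were called, while 2 had an unadjusted p under 0.05. The 6 others had too few peaks to enter. Of the 96 called genes, 92 had the same number in all libraries of each group, and with the spread raised to that of genes with similar numbers limma called 0, with 136 at an unadjusted p under 0.05.

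In the lists of equal length Siglec1 had 2, 2 and 1 peaks under PBS against 3, 4 and 3 under DOX. Its log2 difference was 0.85 ± 0.27 (SE), with an adjusted p of 0.657 in limma. All 3 DOX libraries were above all PBS libraries, which held for 2.71% of the genes tested. In the deposited lists the gene had 4, 4 and 1 under PBS and 4 in each DOX library, so that the groups overlapped there.

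Epor went the other way, with 4 peaks in each PBS library and 2, 3 and 3 in DOX, a log2 difference of -0.52 ± 0.16 (SE) and an adjusted p of 0.657 in limma. All DOX libraries were below all PBS libraries, which held for 2.33% of the genes tested. Leaving out DOX replicate 1 shrank the log2 difference to -0.36 ± 0.013 (SE), with an adjusted p of 0.0028 in limma. The counts left then had no spread within PBS or within DOX, so this p-value cannot be read as a change. In the deposited lists scaled to their totals the difference was -0.93 ± 0.21 (SE), with an adjusted p of 0.225 in limma. Counted as merged regions, however, Epor had the same 2 regions in every library and a difference of 0, since the PBS lists held 2 narrow peaks in the inner region where the DOX lists held 1, and DOX replicate 1 held a single wide peak across the start.

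Ptprc, with 3, 4 and 3 peaks under PBS and 3 in each DOX library, differed by -0.12 ± 0.12 (SE), and Spi1, with 5, 5 and 4 under PBS and 5 in each DOX library, by 0.10 ± 0.09 (SE), both with an adjusted p of 0.793 in limma. These differences were about as large as their errors. The median log2 difference of the 4 tested marker genes was -0.01, against 0.00 over all genes. Among the other lists 0 of 7 myeloid, 0 of 6 leukocyte and 0 of 4 erythroid genes that passed the filter were called.

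The strength of shared regions was compared by rank within the list, turned into a normal score in which a higher score is a stronger peak. Of 49098 regions with a peak in all 6 lists of equal length, limma called 0 at an adjusted p of 0.05, and 6361 (13%) had an unadjusted p under 0.05. The marker genes held 10 of these regions, of which 0 were called and 3 had an unadjusted p under 0.05. The region across the Epor start scored higher in DOX, 0.99 against 0.76, a difference of 0.22 ± 0.07 (SE) with an adjusted p of 0.198 in limma. The region at the upper end of Spi1 differed by -0.19 ± 0.07 (SE, adjusted p 0.280) and the one inside it at chr2:91101351-91101841 by -0.14 ± 0.06 (SE, adjusted p 0.343). The other 7 regions, in Ptprc, Siglec1, Klf1, Spi1 and Epor, differed by -0.29 to 0.58 with adjusted p from 0.410 to 0.941 in limma. All DOX libraries ranked above all PBS libraries for both Epor regions, as for 10.9% of all regions, and below them for the 2 Spi1 regions just given, as for 7.9%. Directions were mixed, with 6 of the 10 regions higher in DOX and a median difference of 0.07, against 0.02 over all regions.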

How the data were processed

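Libraries were grouped by their titles. The authors deposited 1 list of peaks per library on mm10, per the submitters' processing notes, which name Trim Galore 0.6.6, Bowtie2 2.4.5, Picard 2.10.9 and MACS2 2.2.7.1 among others. No peak caller settings, read filters or Tn5 shift were given in the sources used here. Per peak the authors deposited a fold ratio, a −log10 p, a −log10 q, a score (10 times the −log10 q) and, as another kind of value, the summit offset. Chromosome Y was left out (13 to 19 peaks). Pileup and background were solved here from fold and −log10 p under a Poisson model, and 100% of pileups were whole to within 0.05. The background solved from single peaks was equal to within 1% in 100% of them in 5 libraries and in 78.6% in PBS replicate 3. Overlapping peaks were merged into regions. Gene spans, starts and promoters came from RefSeq tables for GRCm38.p6, and exons and introns were not used here. Fits used limma 3.58.1 with trend and robust moderation and Benjamini-Hochberg adjustment over all features, in R 4.3.3, and were tested on simulated data. Alternatives covered list length, thresholds, windows, pseudocount and left-out libraries. The marker genes, lists and tests were chosen with earlier results of these data known. Besides the 10 marker genes, the text names other myeloid, leukocyte and erythroid markers with a start peak in all 6 libraries, genes with the same presence as Siglec1 or Csf1r, and a few chosen after their values were seen. Some marker genes of these lists are not reported here.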

Additional observations from a re-analysis of the deposited data

How the results depend on the processing

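Of 159 recomputed values for single marker genes or regions, 147 kept their direction and their side of the threshold, 4 stayed on that side with a value of 0 (1 of Ptprc, 2 of Spi1, 1 of Epor), 1 passed it and 7 changed sign. The 147 include the marker regions ranked by fold enrichment, whose values all equalled those already given, so that alternative was no separate check. They also include the Siglec1 region without PBS replicate 1, at 4.3e-05. The value that passed was Epor without DOX replicate 1, where neither group had spread. For peaks per gene, where 96 genes were called, limma called 4 with deposited lists scaled to their totals, 196 without a filter, 37 with the replicate block, 0 with the spread raised and 170 to 281 with 1 library left out. For the rank of shared regions, where 0 were called, it called 2 in the strongest 50% of the lists, 29 with the replicate block and 0 to 71 with 1 library left out. The marker genes with a start peak in all libraries were 3 as deposited, 2 (Spi1 and Epor, without S100a8) in lists of equal length, their strongest 50%, at a −log10 q of at least 5 or 10 and, chosen after seeing the data, at a fold of at least 20, 4 with any overlap with the window (Klf1 added), 5 with a window of 2.5 kb (Klf1 and Siglec1 added), 1 with 300 bp (S100a8) and 3 to 4 with 1 library left out; Siglec1 was the one gained without PBS replicate 3. Ptprc moved from -0.12 to 0.16 with assignment within 50 kb, and Spi1 from 0.10 to -0.052 in the deposited lists. With 1 library left out, the Klf1 region ranged from -0.055 to 0.040, the Ptprc region 25181 bp outside from -0.020 to 1.09 and the lower Spi1 region from -0.039 to 0.12, none called. Epor ranged from -0.61 to -0.36 with 1 library left out, and from -0.93 (deposited lists, scaled) to 0 (merged regions) over all alternatives. The cause was not tested. Replicate numbers did not pair the libraries (correlations 0.105, -0.094 and 0.0384; 2 of 3 numbers correlated best with their own), and the replicate block changed no call of a marker gene.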
